A study of Mus musculus with 14 samples.

Results

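The step from 0.5 h to 2 h of negative pressure on a skin wound was followed in 4 of the 14 serum samples of the series, 2 at each time, and in all 111 analytes of the array. The samples were taken by their labels, with no measured value in the choice. The mice were 8-week-old male C57BL/6JNarl animals that shared a full-thickness wound of the back skin and isoflurane anaesthesia. By the study's methods they were also given a tranquilizer (diazepam) and an analgesic (ketorolac) as needed. The wounds were treated by negative pressure (NP) or covered with a wet dressing at atmospheric pressure (AP). The study holds samples of both treatments at 3 times, 0.5 h, 2 h and 16 h, beside controls at 0 h. The comparison asked how the proteins in the blood moved between the earliest and the next time of NP, and how that step differed from the step of the wet dressing. Blood was taken before the animals were killed, so that the times are different animals and a step is a difference between groups, not a change followed within an animal. Serum portions of a group were combined on each membrane. The study's methods speak of 2 independent experiments on the arrays, but which sample belongs to which experiment, and whether the 2 samples of a group were drawn from different mice, is not stated. The p-values then reflect no more than how far these samples differ, which may be technical variation.

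A fresh wound sends proteins into the blood from several sources. Platelets and vessel walls release factors that form, hold and later dissolve the clot, damaged tissue sheds receptors, and resident and arriving leukocytes add cytokines and chemokines, the small proteins that call in further cells. Liver and fat supply acute phase proteins, hormones and binding proteins that are present in serum without any wound. The array reads them together: each antibody is printed as a pair of spots on a membrane, bound protein is made visible by a detection reaction, and the brightness of the spot is its intensity.

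Intensities of different antibodies are on no common scale, so each analyte was compared only with itself. The intensities used first were those that the authors had normalized, in which both samples of a group were brought to the same reference spots but the groups were not brought to each other. The membranes themselves differed between the times. The reference spots, which carry no serum protein, had a mean raw intensity of 44156 and 43449 at NP 0.5 h and of 27336 and 23486 at NP 2 h, and their normalized intensity at 2 h was 54.1% of that at 0.5 h, a log2 step of -0.89. This loss was uneven over the membrane: the 3 reference positions kept 43.5% (row A, first column), 34.6% (row A, column 23) and 80.4% (row J, first column) of their intensity. The negative control kept 44.2%. Each step was therefore also computed after reference scaling, which divides the raw intensity by the mean of the 3 reference positions of the same sample, and after plane scaling, which divides it by a plane laid through those positions. Rose and fell refer to normalized intensity where no other scale is named. Scaled steps are given for the leading analytes and for some of those whose call or sign they change. Further changes of named analytes are listed in the section on the processing. The lists into which the 111 analytes were sorted are described by their distance from the median analyte, which reference scaling and a scaling to the median cannot move. Within a group the paired samples differed by a median of 9.06% at NP 0.5 h and 19.2% at NP 2 h. At 0.5 h 107 analytes were above the negative control in both samples and 4 in 1 of them, and at 2 h 87 were above it in both, 23 in 1 and 1, CCL2, in neither. The 2 h samples differed in this count, with 87 analytes above the control in replicate 1 and 110 in replicate 2. Of 7 abundant serum proteins, among them fetuin A, RBP4 and adiponectin, all were above the negative control in all 4 samples.

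Nearly the whole panel was dimmer at 2 h than at 0.5 h. In normalized intensity 101 of the 111 analytes fell (91% of those tested) and 3 rose (2.7%), by limma with a Benjamini-Hochberg adjusted p under 0.05. The samples of both times did not overlap for 105 analytes (94.6%). The median analyte, the Wnt inhibitor DKK-1, had a step of -1.39, which left 38.3% of its intensity, so the panel lost more than the mean reference spot did. How the calls were split between the directions depended on the scale. Reference scaling gave 23 analytes higher (20.7%) and 57 lower (51.4%), plane scaling 7 higher (6.31%) and 57 lower (51.4%), a scaling of every sample to its median analyte 40 higher and 14 lower, and quantile normalization 23 higher and 32 lower. Reference scaling added 0.89 to every step and median scaling 1.69. Calls were compared across 16 limma settings of the scaling, the background, the fit and the samples. CCL20 was higher in each and 11 analytes were lower in each: RAGE, CXCL9, FGF-21, CXCL10, CXCL11, IL-15, GCSF, CD160, IL-12 p40, CCL17 and CXCL16. These settings leave out the t-test of the study's methods and the removal of the dimmest analytes. After Benjamini-Hochberg adjustment that t-test called 1 analyte higher and 73 lower.

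**Figure D1:**
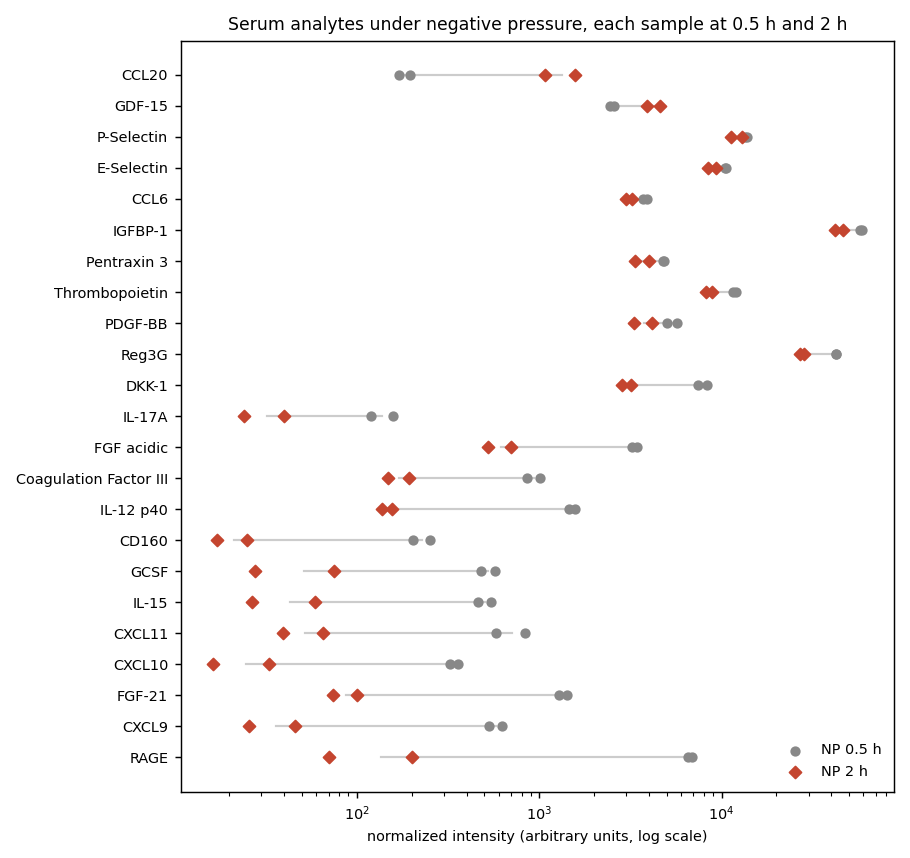
Normalized intensity (log axis, arbitrary units) of 23 analytes in each of the 2 samples at NP 0.5 h (grey circles) and NP 2 h (red diamonds), with a line between the means of the groups. CCL20 and GDF-15 lie to the right at 2 h, P-Selectin to PDGF-BB lie slightly to the left, and RAGE has the widest gap, from 6543 and 6846 to 70.5 and 200.0.

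The analytes that rose included a chemokine and a stress hormone. CCL20, the ligand of CCR6 that draws Langerhans-type dendritic cells and type 17 T cells to skin, was 171 and 196 at 0.5 h against 1572 and 1082 at 2 h. Its step was 2.83 (SE 0.50, adjusted p = 6.41e-05, limma), a 7.12-fold rise, with 3.72 and 4.03 after the reference and the plane scaling. GDF-15, a hormone of the TGF-beta family that stressed tissues release, was 2453 and 2573 at 0.5 h and 3897 and 4609 at 2 h. It rose 1.69-fold, a step of 0.75 (SE 0.23, adjusted p = 0.00616, limma), or 1.64 after reference scaling and 1.55 after plane scaling. The GDF-15 call was lost when the negative control was subtracted, with a step of 0.79 and an adjusted p of 0.0841. The t-test of the study's methods called 1 analyte higher after Benjamini-Hochberg adjustment, so it did not call both CCL20 and GDF-15.

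The largest difference of the step was in RAGE (Ager), a receptor for danger signals whose soluble form is shed from cells, in lung epithelium above all. Its normalized intensity was 6543 and 6846 at NP 0.5 h and 70.5 and 200.0 at NP 2 h. The late samples lay at 1.77% of the early level, a 56.4-fold fall with a log2 step of -5.82 (SE 0.39, 95% interval -6.65 to -4.99, adjusted p = 1.21e-09, limma), and they remained above the negative control in 2 of 2 samples. After reference scaling the step was -4.93 and after plane scaling -5.38. The late samples differed from each other, and the step was -5.06 without NP 2 h replicate 1 and -6.57 without NP 2 h replicate 2. RAGE lay in array row I, beside the row of the reference position that had kept 80.4% of its intensity but many columns away from it.

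Of the lists, that of interferon gamma and the CXCR3 ligands had the lowest median. CXCL9, CXCL10 and CXCL11 are induced by interferons and call activated T cells and natural killer cells through the receptor CXCR3. CXCL9 was 530.4 and 623 at 0.5 h and 25.8 and 46.0 at 2 h, a step of -4.06 (SE 0.36, adjusted p = 2.57e-08, limma). CXCL10 went from 324 and 358 to 16.3 and 33.0 (step -3.87), and CXCL11 from 834 and 579 to 39.5 and 65 (step -3.78). The early samples of all 3 chemokines were well clear of the late ones. Interferon gamma itself had a smaller step of -1.60 (162 and 233 to 60.1 and 68.0), which was not called after reference scaling (-0.72, adjusted p = 0.0786) or plane scaling (-0.75, adjusted p = 0.0892, limma). All 4 members fell in normalized intensity, beside the 91% of the whole panel, and their median step of -3.83 lay 2.44 below the median analyte, 2.39 below it after plane scaling and 1.47 below it after quantile normalization. At 2 h 0 of the 4 were above the negative control in both samples. The chemokines occupy neighbouring positions in array row D.

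FGF-21, IL-15, GCSF and CD160 were also far below the median analyte. FGF-21, a hormone mainly of the liver that answers fasting and stress, was 1286 and 1421 at 0.5 h and 99.7 and 74.0 at 2 h, with all 4 samples above the negative control and a step of -3.98 (SE 0.29, adjusted p = 2.26e-09, limma). Thus the pair of hormones counted as stress signals, GDF-15 and FGF-21, moved in opposite directions, 1.69-fold up and 15.7-fold down. IL-15, which sustains natural killer cells and memory T cells, went from 546 and 464 to 26.6 and 59.0 (step -3.67). GCSF (Csf3), which drives the making of neutrophils, went from 482 and 569 to 27.5 and 75.0 (step -3.53), with -2.80 without NP 2 h replicate 1 and -4.25 without NP 2 h replicate 2. CD160, a receptor of natural killer and T cells, went from 252 and 204 to 17.2 and 25.0 (step -3.45). Each of these 3 was above the negative control in both early samples and in 1 of the late ones.

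Among the leukocyte cytokines most lists lay below the median analyte in normalized intensity. All 4 IL-1 family members fell, beside 91% of the panel, with a median step of -2.47 that was 1.08 below the median analyte but 0.21 below it after quantile normalization. They ranged from IL-1 alpha, an alarm cytokine of damaged keratinocytes (615 and 385 to 114 and 44.0, step -2.78), to IL-33, the barrier alarmin read by mast cells and innate lymphoid cells (1006 and 803 to 211 and 241, step -1.99). IL-1 alpha had a step of -3.47 without NP 2 h replicate 1 and of -2.09 without NP 2 h replicate 2. IL-12 p40 (Il12b), the chain that IL-12 and IL-23 share and that dendritic cells release to drive T cells, was 1580.3 and 1466 at 0.5 h and 137 and 156 at 2 h. It fell by 3.38 on the log2 scale (SE 0.28, adjusted p = 1.26e-08, limma), with both late samples above the negative control. IL-17A, a cytokine by which gamma delta T cells and type 17 cells rouse epithelium and neutrophils, went from 157 and 119 to 24.1 and 40 (step -2.14), with 1 of the late samples above the control. Of the 5 members of the list of IL-12, type 17 and lambda interferon cytokines, 4 fell, beside 91% of the panel, and the list's median lay 0.76 below the median analyte but at it after quantile normalization. IL-22, which acts on keratinocytes, was the exception (88.6 and 202.0 to 76.5 and 93.0). Its step of -0.67 became -1.26 without NP 0.5 h replicate 1, where it was called with an adjusted p of 0.0227 (limma). With NP 0.5 h replicate 2 left out it was -0.07 (adjusted p = 0.902, limma), so its size rested on 1 early sample. All 7 members of the list of T cell cytokines and IL-10 fell, with a median 0.46 below the median analyte and, after quantile normalization, 0.36 above it. They ran from IL-15 to IL-7, which keeps lymphocytes alive (347 and 276 to 99.7 and 166, step -1.27). The IL-7 call was lost after reference scaling (-0.38, adjusted p = 0.396) and plane scaling (-0.50, adjusted p = 0.295). It did not survive the removal of NP 0.5 h replicate 1 (adjusted p = 0.0515, limma), and with NP 2 h replicate 1 removed the adjusted p was 0.0763.

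The gp130 cytokines, which signal through a common receptor chain, were split around a median 0.77 below the median analyte (0.14 below it after quantile normalization). IL-27 p28, IL-11 and LIF fell, with IL-27 p28 the lowest (340.5 and 413 to 61.0 and 63.0, step -2.60). IL-6, the inducer of the acute phase response, was 138 and 93.0 at 0.5 h against 122 and 219 at 2 h, with overlapping samples (step 0.53, adjusted p = 0.281, limma). After reference scaling the IL-6 step was 1.42 (adjusted p = 0.0126) and after plane scaling 1.28 (adjusted p = 0.0254). The 5 hematopoietic growth factors all fell, beside 91% of the panel, from GCSF to Flt-3 Ligand, which expands dendritic cell precursors (3784 and 3566 to 1484 and 1803, step -1.17). Flt-3 Ligand was not called after reference scaling (-0.28, adjusted p = 0.14) or plane scaling (-0.41, adjusted p = 0.0664). The median of the list lay 0.85 below the median analyte, or 0.32 below it after quantile normalization. The TNF superfamily lay at the middle of the panel, 0.11 above the median analyte, with BAFF, the survival factor of B cells, at -1.41 and TNF-alpha, the early inflammatory cytokine, at -1.15. BAFF was not called after plane scaling (-0.05, adjusted p = 0.611). TNF-alpha was dim throughout (81.7 and 111 to 63.6 and 29.0), and its call was lost after reference scaling (-0.26, adjusted p = 0.542), after plane scaling (-0.80, adjusted p = 0.0827) and in a fit of the compared groups alone (adjusted p = 0.0679). It was no longer called after the removal of NP 0.5 h replicate 2 (adjusted p = 0.0815, limma), while removing NP 2 h replicate 2 gave an adjusted p of 0.167.

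Chemokines other than the CXCR3 ligands differed widely. In the list of dendritic cell and lymphocyte chemokines, with a median 0.56 below the median analyte, CCL20 rose and the other 5 fell. The lowest of these was CCL17, a ligand of CCR4 that brings T cells to skin (2680.4 and 2738 to 276 and 370.0, step -3.08, SE 0.22). Both transmembrane chemokines, CX3CL1 and CXCL16, fell, with a median 1.19 below the median analyte (0.43 after quantile normalization). All 3 CXCR2 chemokines, which call neutrophils, fell, again beside 91% of the panel, with a median 0.80 below it that shrank to 0.07 below it after quantile normalization. The 6 monocyte and eosinophil chemokines all fell in normalized intensity, with a median 0.32 above the median analyte, and ran from CCL5 (517 and 499 to 30.1 and 191, step -2.74) to CCL6 (3721 and 3885 to 2992 and 3242, step -0.29). The CCL5 step rested on late samples far apart and was -1.41 without NP 2 h replicate 1 and -4.08 without NP 2 h replicate 2. It was not called after plane scaling (-1.25, adjusted p = 0.059, limma). CCL6 was lower in normalized intensity but higher after reference scaling (0.60), plane scaling (0.80), median scaling (1.40) and quantile normalization (0.94).

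Growth factors made a further set of low values. FGF acidic (Fgf1), a mitogen of fibroblasts and endothelium, was 3230.4 and 3437 at 0.5 h and 527 and 704 at 2 h, a step of -2.45 (SE 0.32, adjusted p = 2.57e-06, limma). EGF, a mitogen of keratinocytes, went from 261 and 198 to 30.1 and 45.0 (step -2.63), and VEGF, the main growth factor of vessels, was 189.9 and 122 against 129.7 and 109 and was not called (step -0.36, adjusted p = 0.431, limma). In this list of receptor tyrosine kinase ligands 5 of 6 fell, with the median 0.64 below the median analyte. DKK-1, which holds back Wnt signalling, was 8274 and 7457 at 0.5 h and 2852 and 3170.0 at 2 h (step -1.39, SE 0.10, adjusted p = 1.85e-09, limma). The late DKK-1 samples lay below the early ones also after reference scaling (-0.50) and plane scaling (-0.46), and the sign turned only after median scaling (0.30) among the scalings tried.

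**Figure D2:**
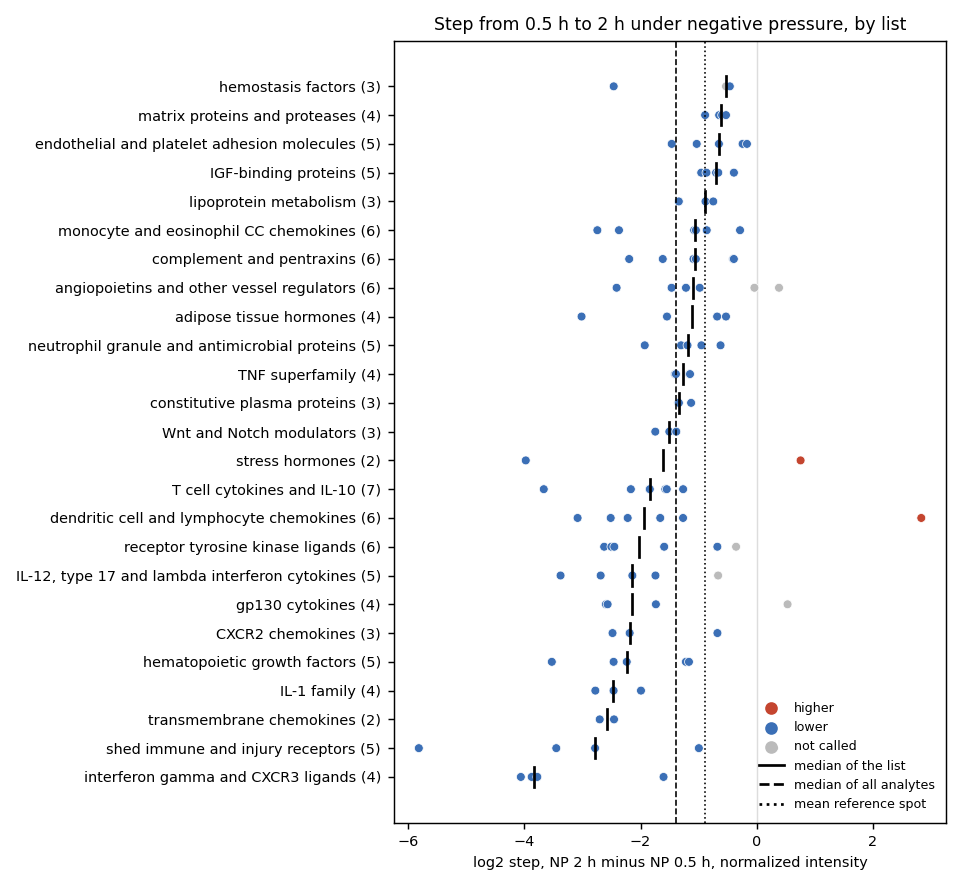
Log2 step (NP 2 h minus NP 0.5 h) of 110 analytes, in 25 lists ordered by their median (black bars, number of members in parentheses), coloured by the limma call. The dashed line is the median of all analytes at -1.39 and the dotted line the mean reference spot at -0.89. The interferon gamma group lies farthest to the left and the hemostasis factors farthest to the right.

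At the other end of the panel in normalized intensity were proteins of clot, vessel wall and matrix. The list of hemostasis factors had the highest median there, 0.86 above the median analyte (0.44 above it after plane scaling), over 3 members that differed widely. Its rank depended on the scale. After plane scaling the monocyte and eosinophil chemokines stood highest, 0.73 above the median analyte. After quantile normalization the stress hormones did, 0.65 above it. Coagulation Factor III (F3, tissue factor), the starter of clotting, went from 1007 and 860.0 to 192 and 148 (step -2.46, SE 0.24, adjusted p = 1.18e-07, limma). Thrombopoietin, the growth factor of platelets, was 11984 and 11532 against 8234 and 8821, lower in normalized intensity (step -0.46) and higher after reference scaling (0.42), median scaling (1.22) and quantile normalization (0.57). After plane scaling it was not called (-0.12, adjusted p = 0.371, limma). PDGF-BB, released by platelets to draw fibroblasts, was 5051 and 5681 at 0.5 h and 3319.8 and 4147 at 2 h. These samples did not overlap, yet the step of -0.53 was not called (SE 0.32, adjusted p = 0.119, limma). It was called lower in a fit of the compared groups alone (adjusted p = 0.00196), with the negative control subtracted (0.0233) and with an offset of 1% of the reference spots (0.0021). Its sign turned after reference scaling (0.36) and quantile normalization (0.40), without a call. After median scaling it was called higher (1.16, adjusted p = 0.00137, limma).

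The endothelial and platelet adhesion molecules all fell in normalized intensity, 5 of 5. Their median lay 0.73 above the median analyte (0.22 above it after quantile normalization). P-Selectin, stored in platelets and endothelium and used by leukocytes to roll on vessel walls, was 13864 and 13360.0 against 11287 and 12982, a step of -0.17 (SE 0.07, adjusted p = 0.038, limma) that became 0.72 after reference scaling, 0.16 after plane scaling, 1.52 after median scaling and 0.91 after quantile normalization. Its normalized call was lost on raw intensities (adjusted p = 0.289), without the trend (0.0878), in a fit of the compared groups alone (0.113), and without any of NP 0.5 h replicate 1 (0.162), NP 0.5 h replicate 2 (0.0622) and NP 2 h replicate 1 (0.372). E-Selectin, made by activated endothelium, was 10557 and 10408 against 8418 and 9305 (step -0.24, or -0.17 with an adjusted p of 0.0545 without NP 2 h replicate 1). It also turned to a positive sign after reference (0.64), plane (0.08), median (1.44) and quantile scaling (0.81). ICAM-1, to which leukocytes attach firmly, was the lowest of the list at -1.46 (17473 and 15441 to 5657 and 6266) and kept a negative step after reference scaling (-0.58) and plane scaling (-0.63), with 0.22 after median scaling.

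Binding proteins and matrix proteins moved little against each other. The 5 IGF-binding proteins, carriers that hold insulin-like growth factors in the blood, spanned only -0.96 for IGFBP-6 to -0.39 for IGFBP-1. Their median lay 0.68 above the median analyte (0.14 above it after quantile normalization). IGFBP-1, which the liver releases under stress and fasting, was 57158 and 58869 against 42110.0 and 46320.0, lower in normalized intensity and higher after reference scaling (0.49, adjusted p = 2.11e-05), plane scaling (0.48, adjusted p = 2.88e-05, limma) and median scaling (1.29). The 4 matrix proteins and proteases lay 0.76 above the median analyte (0.24 above it after quantile normalization). They spanned -0.89 for osteopontin, a matrix protein that cells attach to, to -0.53 for the gelatinase MMP-2. Of the 4, 3 were higher after reference scaling and 0 after plane scaling. The 5 neutrophil granule and antimicrobial proteins fell in normalized intensity, with a median 0.19 above the median analyte that turned to 0.13 below it after plane scaling. Reg3G, an antimicrobial lectin of epithelia, had the smallest step of them (42391 and 42526 to 26945 and 28186, step -0.62). After reference scaling it was higher (0.26) and after plane scaling lower (-0.18). Myeloperoxidase, the oxidant enzyme of neutrophil granules, was the lowest of that list (5299.7 and 4996 to 1169 and 1563, step -1.93, SE 0.12).

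Acute phase and fat-derived proteins took the middle, with medians 0.32 above the median analyte for the complement proteins and pentraxins and 0.27 above it for the adipose tissue hormones, or 0.17 and 0.10 below it after quantile normalization. The 6 complement proteins and pentraxins fell in normalized intensity, from C1q R1 (Cd93), a receptor of endothelium and monocytes (7547 and 6893 to 1552 and 1597, step -2.20), to Pentraxin 3, a pattern recognition protein made at the site of injury (4857 and 4783 to 3369 and 3992, step -0.39). Pentraxin 3 was higher after reference scaling (0.49) and at 0.01 after plane scaling, and its normalized call was lost without NP 2 h replicate 1 (-0.27, adjusted p = 0.131, limma). Of the adipose tissue hormones leptin, which reports fat stores, was lowest (653 and 821 to 77.3 and 106, step -3.02), while resistin had a step of -0.53 and turned to 0.36 after reference scaling. Among the angiopoietins and other vessel regulators 4 of 6 fell, with a median 0.29 above the median analyte, or 0.01 below it after quantile normalization. The lowest was PD-ECGF (thymidine phosphorylase), with 498 and 226 against 113 and 35.0 and a step of -2.41 that was -3.26 without NP 2 h replicate 1 and -1.56, no longer called (adjusted p = 0.0686, limma), without NP 2 h replicate 2. After reference scaling PD-ECGF was not called (-1.53, adjusted p = 0.0539, limma). Proliferin, a prolactin-family protein known in mice as an angiogenic factor, overlapped between the times (step 0.38, adjusted p = 0.439), as did TIM-1, a receptor that injured kidney tubules shed (step 0.29, adjusted p = 0.448, limma). Both were called higher after reference scaling (1.27 and 1.18), median scaling (2.07 and 1.98) and quantile normalization (2.08 and 2.07). With an offset of 1% of the reference spots both were called lower (-0.47 and -0.55). TIM-1 and RAGE were sorted with the shed receptors, of which 4 of 5 fell with a median 1.40 below the median analyte. The remaining lists held 3 members each, all lower. The median of the lipoprotein proteins lay 0.50 above the median analyte (0.05 above it after quantile normalization). That of the constitutive plasma proteins fetuin A, RBP4 and cystatin C lay 0.04 above the median analyte (0.54 below it after quantile normalization). The Wnt and Notch modulators with DKK-1 had a median 0.12 below the median analyte (0.51 below it after plane scaling and 0.06 above it after quantile normalization).

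The size of the step followed the position of an analyte on the array and its brightness. By array row, the median step of the analytes was -1.51 in row A, -1.33 in row B and between -2.07 and -1.21 in rows C to H, but -0.60 in row I and -0.30 in row J, where the reference position had kept most of its intensity. Plane scaling brought rows A, I and J to -0.24, -0.18 and 0.04 and row B to -0.06, while rows C to H stayed lower, between -1.45 and -0.69. Among the brightest 37 analytes at 0.5 h alone the medians ran from -1.41 in row A to -0.35 in row J, and after plane scaling they were -0.05 and -0.02. By brightness at NP 0.5 h, the dimmest 37 analytes had a median step of -2.17, the middle 37 of -1.75 and the brightest 37 of -0.96. In the same order the medians were -1.28, -0.86 and -0.07 after reference scaling and -1.25, -1.25 and -0.07 after plane scaling. Neither scaling removed the dependence on brightness. The lists differed in brightness too. Their median level at NP 0.5 h was 20665 for the IGF-binding proteins, 13215 for the matrix proteins and 10483 for the adhesion molecules. It was 459 for interferon gamma and the CXCR3 ligands, 398 for the IL-1 family and 217 for the list of IL-12. The monocyte and eosinophil chemokines, at 447, were dim as well but lay above the median analyte. Several of the proteins with small steps named above lie in rows I and J, among them P-Selectin, E-Selectin, VEGF, PDGF-BB, thrombopoietin, Pentraxin 3 and Reg3G. The part of position and brightness in the steps was not tested beyond these scalings.

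**Figure D3:**
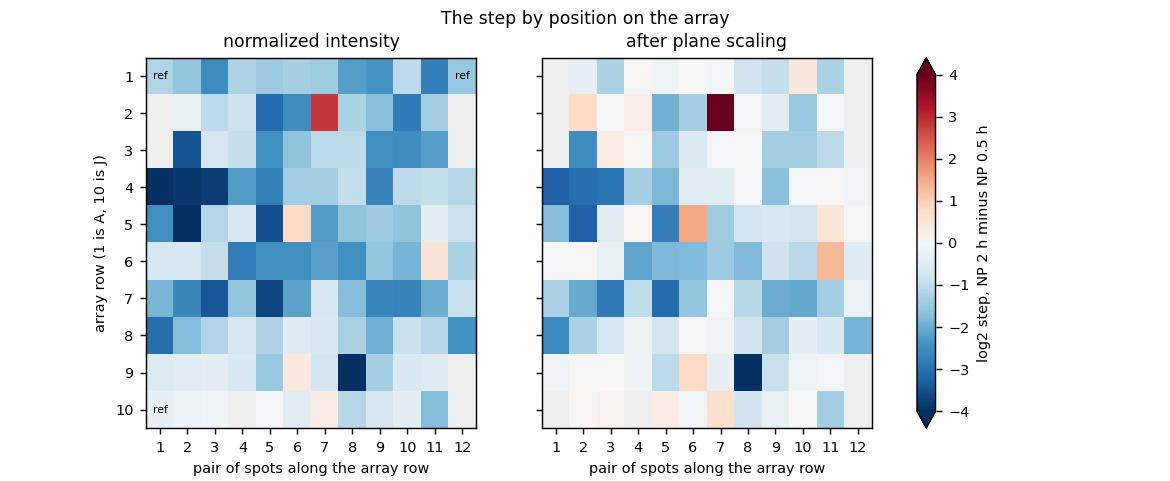
Log2 step (NP 2 h minus NP 0.5 h) of each pair of spots at its place on the array, in normalized intensity (left) and after plane scaling (right), blue for lower, red for higher, with the 3 reference positions marked and positions with no analyte shown in grey. On the left the last rows are paler, with medians of -0.60 and -0.30, and on the right they come close to the first rows. CCL20 is dark red and RAGE dark blue in both.

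The step of NP was then set against the same step of AP, which had its own 4 samples. Under AP the median analyte had a step of 0.20, with 44 analytes higher (39.6%) and 11 lower (9.91%). The mean reference spot was at 105.3%, but its positions were uneven here too. They stood at 98.1% (row A, first column), 85.6% (row A, column 23) and 138.6% (row J, first column). The median AP step was 0.01 in row A, 0.66 in row I and 0.75 in row J. Of the 101 analytes that fell under NP, 41 were higher, 10 lower and 50 not called under AP. The difference of the steps was tested in the same fit. The NP step was below the AP step for 94 analytes (84.7%) and above it for 4 (3.6%), with a median difference of -1.69. After reference scaling 64 were below (57.7%) and 15 above (13.5%), and after plane scaling 56 (50.5%) and 14 (12.6%). A scaling to the median analyte gave 7 below and 58 above, and quantile normalization 22 and 20. In each of 20 settings GDF-15 and Pentraxin 2 were above, and 7 analytes were below, RAGE, FGF-21, CXCL9, CCL17, Coagulation Factor III, FGF acidic and PDGF-BB.

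RAGE went in opposite directions under the 2 pressures. Under AP it was 537 and 414 at 0.5 h and 8237 and 7917 at 2 h, a step of 4.10, against -5.82 under NP. The difference of -9.92 (SE 0.55, adjusted p = 3.05e-10, limma) was the largest of the panel. PDGF-BB was 532 and 662 at AP 0.5 h and 7578 and 7937 at AP 2 h, so that its AP step of 3.71 stood against -0.53 under NP, which was not called. Coagulation Factor III rose under AP from 1041 and 923 to 4591 and 4534 (step 2.22) and fell under NP, a difference of -4.68 (SE 0.35, adjusted p = 4.47e-09, limma). FGF acidic (AP step 1.68, difference -4.13) and CCL17 (AP step 1.16, difference -4.25) showed the same opposition, and DKK-1 did so with an AP step of 1.43 and a difference of -2.82, which was 0.05 after median scaling. FGF-21 and CXCL9 were not called under AP (steps of 0.68 and 0.44), with differences of -4.66 and -4.50.

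GDF-15 was the opposite case. Under AP it fell from 2289 and 2471 to 640.0 and 532 (step -2.03), and the difference of 2.78 (SE 0.33, adjusted p = 1e-06, limma) was the largest in the upward direction. CCL20 was dim at both AP times, at 67.8 and 119 and then 118 and 169, and its difference of 2.18 had an adjusted p of 0.00925 (limma), which became 0.0508 without AP 0.5 h replicate 2 and 0.053 with the negative control subtracted. Pentraxin 2 (Apcs, serum amyloid P), an acute phase protein of the mouse liver, fell under NP by 0.41 (0.48 higher after reference scaling) and under AP by 0.95, a difference of 0.54 (SE 0.19, adjusted p = 0.0133, limma).

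**Figure D4:**
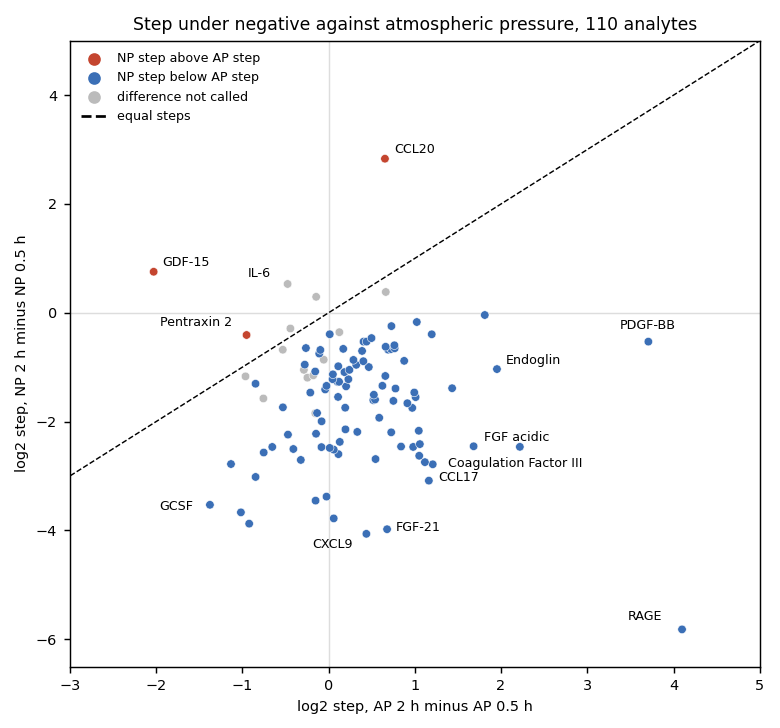
Log2 step from 0.5 h to 2 h under NP (vertical axis) against that under AP (horizontal axis) for 110 analytes, coloured by the limma call of the difference, with a dashed line where both steps are equal. RAGE lies at 4.10 and -5.82, PDGF-BB at 3.71 and -0.53 and GDF-15 at -2.03 and 0.75.

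The other times placed the step in a longer course, as a description on the reference scale with no test. RAGE stood at 15.1 and 15.8% of the mean reference spot at NP 0.5 h, 0.30 and 0.85% after 2 h, and 1.64 and 0.83% after 16 h. The controls had 0.61 and 0.62%. FGF-21 was low at NP 2 h, with 2.96 and 3.27% before it, 0.42 and 0.32% then, and 10.1 and 10.4% by 16 h. Its 2 h level was close to that of the controls, at 0.39 and 0.34%. CCL20 had its only high group at NP 2 h, at 6.69 and 4.61%, and both its NP 16 h samples (0.69 and 1.02%) were far below it but above those of 0.5 h (0.39 and 0.45%). GDF-15 reached 16.6 and 19.6% at NP 2 h before 0.92 and 0.67% at 16 h. PDGF-BB stayed between 11.6% and 18.2% in all 6 NP samples, while the AP samples ran from 0.28% to 23.4%.

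**Figure D5:**
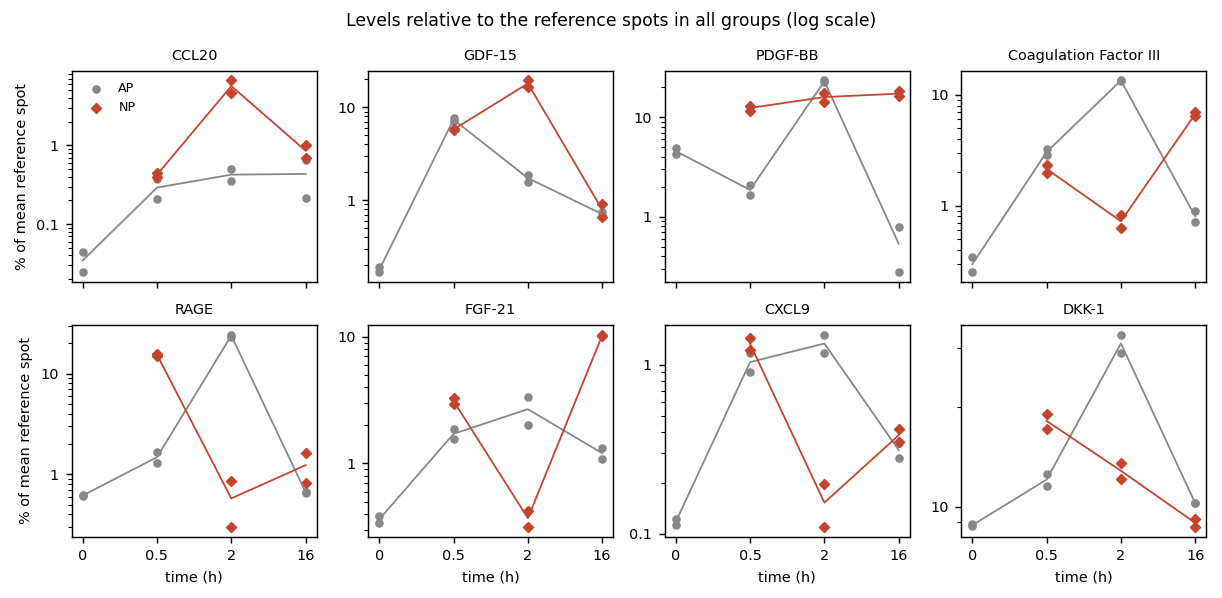
Level of 8 analytes as a percentage of the mean reference spot (log axes that differ between panels) in each sample of the 4 times, which are spaced evenly along the axis, and lines through the group means, AP in grey with the 0 h controls and NP in red. RAGE and CXCL9 drop at NP 2 h, FGF-21 drops at NP 2 h and is highest at NP 16 h, and CCL20 and GDF-15 peak at NP 2 h.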

How the data were processed

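Serum of wounded mice was measured on a membrane antibody array (mouse XL cytokine array, R&D Systems) in 14 samples, 7 groups of 2. ImageJ was used by the authors to read the spots, and they deposited a raw intensity for each of 111 analytes, 3 reference positions and a negative control. They also deposited a normalized intensity, the raw value times a factor per sample that is at most 1 and otherwise the mean reference spot of its partner in the group divided by its own (0.984 and 1 at NP 0.5 h, 0.859 and 1 at NP 2 h). Whether a background was subtracted is not given in the sources used here. The deposited ratio columns hold the authors' fold over 0 h and were not used. The deposited normalized values were equal to those of the series table (largest difference 0) and were recomputed within a relative difference of 4.75e-06. Apart from the ratio columns, 0 columns of values were left unused. Membranes give no read depth, and their number and the signal over the negative control limit the precision. An analyte counted as above the negative control where its raw value exceeded that of its sample.

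Steps were tested on log2 of the deposited normalized intensity by limma (version 3.58.1, under R 4.3.3; lmFit, then eBayes with trend) over all 14 samples, with Benjamini-Hochberg adjustment over the 111 analytes and a threshold of 0.05, and the difference between the NP and AP steps in the same fit. The model was tested on 20 sets of simulated data in which 30 analytes were changed by a log2 step of 1. It recovered 73.5% of these changes, with 0.7 false calls per simulation. The simulated membranes did not differ in brightness between the times, so the effect of that difference on the calls was not tested. Gene symbols of 111 of 111 analytes matched the RefSeq table of mouse through their Entrez identifiers. Tables were made with pandas 2.3.3 and numpy 2.4.6 under Python 3.11.15, and plots with matplotlib 3.10.9. Array positions came from the study's list of spots, in which the position of Complement Component C5 was filled by hand.

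The members and the 25 lists were chosen with earlier results of these data known. The rule for named analytes took the 8 lowest and the 8 highest steps without overlap between the samples, the analytes that the study's text names, and the ends of each list of 4 or more, which makes 49 analytes, 48 of them reported. The values of 1 analyte are not reported here, and it stands only in the fit and in the counts, shares and medians over all analytes and array rows. CXCL16, CX3CL1, IL-11, LIF and Pentraxin 2 are named outside it, after their values were seen. The alternatives were raw intensities, the reference, plane, median and quantile scalings, subtraction of the negative control (with 172 values raised to 1% of the median analyte), addition of 1% of the mean reference spot, removal of the dimmest 0.25 of the analytes, limma with no trend, other sets of samples in the fit, the replicate number as a block, each compared sample left out in turn and the methods' t-test. Experiments of the study on tissue and cells were not analysed here.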

Additional observations from a re-analysis of the deposited data

Results flagged for a closer look

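For 22 of the 23 analytes that the naming rule took for the size of their step or from the study's text, the step from 0.5 h to 2 h differed between NP and AP in the limma fit (adjusted p under 0.05 for each), and 1, CCL6, did not (difference 0.15). The CCL6 difference was nevertheless called higher after reference (1.12), plane (1.24), median (3.02) and quantile scaling (2.53). Over the whole panel the difference was called lower for 84.7% of the analytes and higher for 3.6%, so the count is near that of the panel. The values are log2 differences, NP step minus AP step, in normalized intensity, over membranes whose mean reference spot had a step of -0.89 under NP and 0.07 under AP.

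The difference was negative for 20 of them. The receptor RAGE had -9.92, tissue factor (Coagulation Factor III) -4.68, the hormone FGF-21 -4.66 and the chemokine CXCL9 -4.50. PDGF-BB had -4.24, FGF acidic -4.13, the chemokine CXCL11 -3.84, IL-12 p40 -3.35 and CD160 -3.30. CXCL10 had -2.95, DKK-1 -2.82, IL-15 -2.65, IL-17A -2.34 and GCSF -2.15. Among the proteins with small NP steps, Pentraxin 3 had -1.59, Reg3G -1.29, P-Selectin -1.19, E-Selectin -0.97, thrombopoietin -0.96 and IGFBP-1 -0.41. The difference was positive for GDF-15 at 2.78 and CCL20 at 2.18.

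In RAGE, Coagulation Factor III, FGF acidic, DKK-1, Reg3G, thrombopoietin, Pentraxin 3, E-Selectin, P-Selectin and GDF-15 the steps of both pressures were called with opposite signs in normalized intensity. After reference scaling the NP steps of Reg3G (0.26), thrombopoietin (0.42), Pentraxin 3 (0.49), E-Selectin (0.64) and P-Selectin (0.72) were called higher, and the P-Selectin call in normalized intensity was lost on raw intensities (adjusted p = 0.289, limma). After reference scaling the calls of thrombopoietin (adjusted p = 0.998), E-Selectin (0.95), GCSF (0.0746) and P-Selectin (0.0573) were lost and IGFBP-1 turned to 0.55. Median scaling and quantile normalization each ended the calls of the difference for CXCL10, CXCL11, IL-12 p40, CD160, IL-15, IL-17A and GCSF. CXCL10 had -0.09 and -1.06 in that order, CXCL11 -0.97 and -1.05, IL-12 p40 -0.49 and -0.64, and CD160 -0.43 and -1.22. The part of membrane brightness in these differences was not tested beyond the scalings. Groups of 2 samples allow no test for an outlying sample.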

How the results depend on the processing

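The split of the calls between the directions changed with the scaling. Higher and lower calls of the NP step were 3 and 101 in normalized intensity, 23 and 57 after reference scaling, 7 and 57 after plane scaling, 40 and 14 after median scaling and 23 and 32 after quantile normalization. They were 3 and 100 on raw intensities, 3 and 96 with the negative control subtracted, 3 and 107 with the offset, 2 and 79 without the dimmest 0.25 of the analytes, 3 and 100 without the trend, 3 and 98 in a fit of the compared groups alone and 3 and 101 without the 0 h samples. Leaving out one sample gave 3 higher and from 95 to 98 lower. The methods' t-test called 3 and 82 unadjusted, and 1 and 73 after Benjamini-Hochberg adjustment. The difference between the NP and AP steps had 4 higher and 94 lower calls, 15 and 64 after reference scaling, 14 and 56 after plane scaling, 58 and 7 after median scaling and 20 and 22 after quantile normalization, and between 3 and 4 higher and between 90 and 93 lower when one sample was left out. The replicate number as a block gave 3 and 101 for the step and 4 and 94 for the difference and changed no call among the named analytes. The labels say of no number that it marks a shared animal or day. The deviations of samples with the same number correlated at 0.28 between NP 0.5 h and NP 2 h. The correlation was 0.50 between AP 2 h and NP 0.5 h but below 0.1 for several other pairs of groups. Such correlations cannot tell whether samples with the same number share an experiment.

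Named steps whose sign turned were, after reference scaling, IL-22 0.22, Reg3G 0.26, Resistin 0.36, PDGF-BB 0.36, MMP-2 0.36, Thrombopoietin 0.42, Pentraxin 3 0.49, IGFBP-1 0.49, VEGF 0.53, CCL6 0.60, E-Selectin 0.64 and P-Selectin 0.72, and after plane scaling Pentraxin 3 0.0050, VEGF 0.0071, E-Selectin 0.075, P-Selectin 0.16, IGFBP-1 0.48 and CCL6 0.80. After median scaling they were IFN-gamma 0.083, ICAM-1 0.22, BAFF 0.28, DKK-1 0.30, IL-7 0.42, Flt-3 Ligand 0.52, TNF-alpha 0.54, IGFBP-6 0.73, Osteopontin 0.80, IL-22 1.02, Reg3G 1.06, Resistin 1.16, PDGF-BB 1.16, MMP-2 1.16, Thrombopoietin 1.22, Pentraxin 3 1.29, IGFBP-1 1.29, VEGF 1.33, CCL6 1.40, E-Selectin 1.44 and P-Selectin 1.52, and after quantile normalization Flt-3 Ligand 0.072, Osteopontin 0.073, IL-33 0.14, IGFBP-6 0.18, Reg3G 0.30, MMP-2 0.34, PDGF-BB 0.40, IFN-gamma 0.42, Resistin 0.54, Thrombopoietin 0.57, IL-7 0.68, Pentraxin 3 0.69, E-Selectin 0.81, P-Selectin 0.91, CCL6 0.94, TNF-alpha 0.97, IL-22 1.34 and VEGF 1.36. The sign also turned for VEGF (0.29) with the negative control subtracted, for TIM-1 (-0.55), Proliferin (-0.47) and IL-6 (-0.45) with the offset, for TIM-1 (-0.048) and Proliferin (-0.021) without NP 2 h replicate 2 and for Proliferin (-0.013) without NP 0.5 h replicate 2, where leaving out each sample in turn put Proliferin between -0.021 and 0.79. For the difference between the steps the sign turned after reference scaling for IGFBP-1 0.55 and after plane scaling for IGFBP-1 0.55. It turned after median scaling for DKK-1 0.051, IL-15 0.22, IL-17A 0.53, GCSF 0.72, Pentraxin 3 1.28, Reg3G 1.58, P-Selectin 1.68, E-Selectin 1.90, Thrombopoietin 1.91 and IGFBP-1 2.46, and after quantile normalization for P-Selectin 0.11, GCSF 0.15, Pentraxin 3 0.17, E-Selectin 0.56 and Thrombopoietin 0.66. Calls of the NP step were also lost without a turn of sign. Coagulation Factor III, FGF acidic, IL-17A, EGF, IL-27 p28, IL-1 alpha, CCL5 and PD-ECGF were called neither after median scaling nor after quantile normalization. Median scaling also ended the calls of C1q R1, IL-33 and myeloperoxidase, and quantile normalization those of leptin and IGFBP-1. Reference scaling ended those of osteopontin and IGFBP-6, and plane scaling those of resistin and MMP-2. Apart from the shifts that the scalings add by construction, the cause of these changes was not tested. IL-22 and VEGF were called lower with the offset, as were TIM-1, Proliferin and IL-6. VEGF, TIM-1, Proliferin and IL-6 were called higher after median scaling and after quantile normalization. With 87 analytes above the negative control in both NP 2 h samples, the size of the fall of the others, the CXCR3 ligands among them, is limited by that control. RAGE (70.5) and FGF-21 (99.7) were above it in both, but not far from the normalized control of 61.9 in NP 2 h replicate 1.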

Other observations

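The paired samples at NP 2 h differed in one direction more often than those of the other groups: replicate 1 was above replicate 2 for 25 of 111 analytes, against 63 to 76 in the other 6 groups. The raw negative control was 72 in replicate 1 and 24 in replicate 2 at NP 2 h, and 93 and 83 at NP 0.5 h. No source used here says how these membranes differed.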
